A study of Mus musculus with 57 samples.

Results

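Cell junction and polarity genes of the mouse renal vesicle were examined in single cells: 50 genes of the 12087 in the deposited expression table, namely 7 cadherins, 13 protocadherins, 9 genes named as claudins, 4 other tight junction genes, 11 polarity genes, 5 genes of junction plaques, and Epcam. Members were taken by name: every cadherin, claudin, zonula occludens (Tjp) or Pard symbol with a row, every Pcdh symbol, and 14 further genes chosen singly, all of which had a row. The row named Cldn25 carries the identifier that RefSeq gives to Cldnd1, a claudin-related gene, and it is kept here under the name in the table. Genes without a row, such as Cdh5 and Cldn2, were not analysed here.

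The renal vesicle is the first epithelial structure of the nephron, formed when cap mesenchyme of the kidney clusters and turns into epithelium. During that change cells put cadherins on their surfaces, link them through catenins to actin, seal the space between neighbours with claudins and occludin, and set up an apical and a basal side with the Par, Crumbs and Scribble proteins. Cdh2 and Cdh11 are cadherins typical of mesenchyme, Cdh1 (E-cadherin) and Epcam are classical epithelial markers, and Cdh4, Cdh6 and Cdh16 are known for nephron and tubule epithelium. In the vesicle the pole next to the ureteric bud is called distal and the opposite pole, from which podocytes arise, proximal.

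The 57 cells were 1 group: renal vesicle cells of postnatal day 4 Tg(Crym-EGFP) mice on a mixed background, a reporter line in which green protein is made under the regulatory sequence of Crym. They came from 1 pool of 2 kidneys, were dissociated, isolated by fluorescence-activated sorting and captured singly on a microfluidic chip. All 57 libraries share 1 sequencing run and lane. The labels give no condition, no time course and no cell class, so cells are not replicates, no p-value was made, and intervals on shares (exact Clopper-Pearson, 95%) cover only the drawing of cells from this pool. Levels are RPKM, reads scaled to the length of the transcript and to the depth of the library, which can be compared between genes. Detected means RPKM of at least 1.

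The cells were placed in classes by 4 genes that are not members. Pax8, a factor made throughout the early nephron, split the cells at RPKM 5 into 50 Pax8 cells and 7 Pax8-low cells, with no cell between RPKM 1.99 and 10.7. Among Pax8 cells, 33 had Wt1 at RPKM 20 or more without Pou3f3 or Sox9 at that level and are called Wt1-only, since Wt1 marks the proximal vesicle. Another 12 had Pou3f3 or Sox9, both known from the distal vesicle, at RPKM 20 or more without Wt1 and are called distal-gene-only. Both kinds were present in 2 cells (cells 36 and 41) and neither in 3 (cells 3, 37 and 42). These classes are ranges of marker levels and not cell types: within a factor of 2 of the threshold lay 5 cells for Wt1, 3 for Pou3f3 and 4 for Sox9.

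Other markers followed the split in part. Tmem100, on the proximal list, was detected in 24 of 33 Wt1-only and in 4 of 12 distal-gene-only cells, and Emx2 was detected in 9 of 33 against 9 of 12. Tcf21, from the same list, was found in 21 of 33 and 8 of 12 and did not separate them. Hoxb7, on the ureteric bud list, was found in 12 of 33 Wt1-only and 10 of 12 distal-gene-only cells. Of that list's 6 genes only 2 have a row, and they summed to 0 to 164 RPKM in the former and 0 to 391 in the latter. The part of ureteric bud genes in the results on the distal-gene-only cells was not tested. Of the 7 Pax8-low cells, 5 had the macrophage gene C1qb at RPKM 1000 or more (cells 1, 25, 35, 46 and 58), and cells 13 and 53 held stroma genes. Detected genes per cell ranged from 2809 to 6502, with medians of 4339 in Wt1-only, 4330 in distal-gene-only and 3489 in Pax8-low cells. Estimated depth ran from 476000 to 2310000 reads a cell, so that RPKM 1 in a transcript of 2 kb stood for about 2.97 reads in the median cell.

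Most junction and polarity genes were found in a minority of cells. The median member was detected in 11.5 of 57 cells (20.2%), against 16 cells (28.1%) for the median gene of the table. Only 5 of the 50 (10%) were detected in 29 or more cells, a breadth that 28.0% of all genes reached, and 14 (28%) were detected in 5 or fewer cells, against 18.6% of all genes. Those 5 were Ctnna1, Cldn25, Cdh2, Pard3 and Cdh4. A gene entered the table with at least 2 cells above RPKM 3, so these shares describe listed genes only.

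Among adherens junction genes Ctnna1, Cdh2 and Cdh4 were detected in most cells. Ctnna1, the alpha-catenin that joins cadherins to actin, was detected in 54 of 57 cells (94.7%, interval 85.4 to 98.9%), with a mean of 132 RPKM ± 115 (SD, n = 57 cells). Its partner beta-catenin (Ctnnb1, not a member) was detected in 52 cells. Cdh2 (N-cadherin) led the cadherins with 34 cells and a mean of 21.1 RPKM ± 45.0 (SD), and the highest value was 240 RPKM in cell 29. Cdh4 (R-cadherin) followed with 29 cells and Cdh11 with 22, then Cdh6 with 16, Cdh1 with 14, Cdh16 with 13 and Cdh3 (P-cadherin) with 6. Where a cadherin was present it could be high: the top cell reached 110 RPKM for Cdh4, 278 for Cdh11, 217 for Cdh6 and 413 for Cdh16, but 80.1 for Cdh1.

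More than 1 cadherin was detected in most cells. The most common number of cadherins detected was 2, in 20 of 57 cells, and 3 or more were detected in 11, 8, 3 and 1 cells for counts of 3, 4, 5 and 6. Cdh2 or Cdh4 was detected in 43 of 50 Pax8 cells (86%, interval 73.3 to 94.2%). Every one of the 14 cells with Cdh1, all Pax8 cells, also had Cdh2, Cdh4 or Cdh11, and 10 of the 14 (71.4%) had Cdh2 itself. Cdh1 without any of those 3 was found in 0 of 50 Pax8 cells (interval 0 to 7.11%). Cdh2 was detected in 68% of Pax8 cells, and Cdh2 or Cdh4 in 86%. The overlap with Cdh1 was thus near these general shares and shows no particular pairing. Cdh6 and Cdh11 were rarely found together: 2 of 16 cells with Cdh6 had Cdh11 (12.5%), which was detected in 38.6% of all cells.

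Claudins were scattered, with 1 exception. Cldn25 was detected in 36 cells, at a mean of 48.8 RPKM ± 81.0 (SD). Among the other claudins, Cldn5 was detected in 22 cells, at a mean of 50.7 RPKM ± 102.7 (SD), and reached 393 RPKM in cell 2. The remaining 7 were found in 2 to 11 cells: Cldn12 in 11, Cldn1 in 9, Cldn9 in 7, Cldn6 and Cldn7 in 6, Cldn3 in 5 and Cldn10 in 2. At least 1 claudin other than Cldn25 was detected in 36 of 50 Pax8 cells (72%, interval 57.5 to 83.8%), and more than 1 in 15 of 50. Tight junction partners were uneven: the adhesion molecule F11r (JAM-A) was detected in 28 cells, and the scaffold Tjp1 (ZO-1) in 24, but Ocln (occludin) in 3.

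Of the polarity genes, Pard3 and Prkci of the Par complex were detected in the largest numbers of cells. Pard3 was detected in 30 cells, its kinase partner Prkci (atypical protein kinase C iota) in 22, and the adaptor genes Pard6g, Pard6b and Pard6a in 20, 11 and 3. Pard3, Prkci and a Pard6 gene were detected together in 11 of 50 Pax8 cells (22%, interval 11.5 to 36.0%) and in none of the 7 Pax8-low cells. On the basolateral side Llgl1 was detected in 21 cells, Dlg1 in 19, Scrib in 15 and Llgl2 in 7. The apical Crumbs gene Crb3 was found in 6 cells, with 283 RPKM in cell 36 and at most 87.5 in the others. Of the desmosome genes Jup (plakoglobin, shared with adherens junctions) was detected in 26 cells, Dsp (desmoplakin) in 10 and Pkp2 (plakophilin) in 3.

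Protocadherins were the narrowest family, with a median of 5 cells. Pcdhgc3 was detected in 15, Pcdh7 in 13, Pcdh18 in 12, and the others in 2 to 6, down to Pcdhga8 in 2. The gamma genes share their last exons and the beta genes are near copies of each other, so the levels of Pcdhg and Pcdhb rows depend on how reads were divided and are uncertain. At least 1 of these clustered genes was detected in 28 of 50 Pax8 cells.

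**Figure D1:**
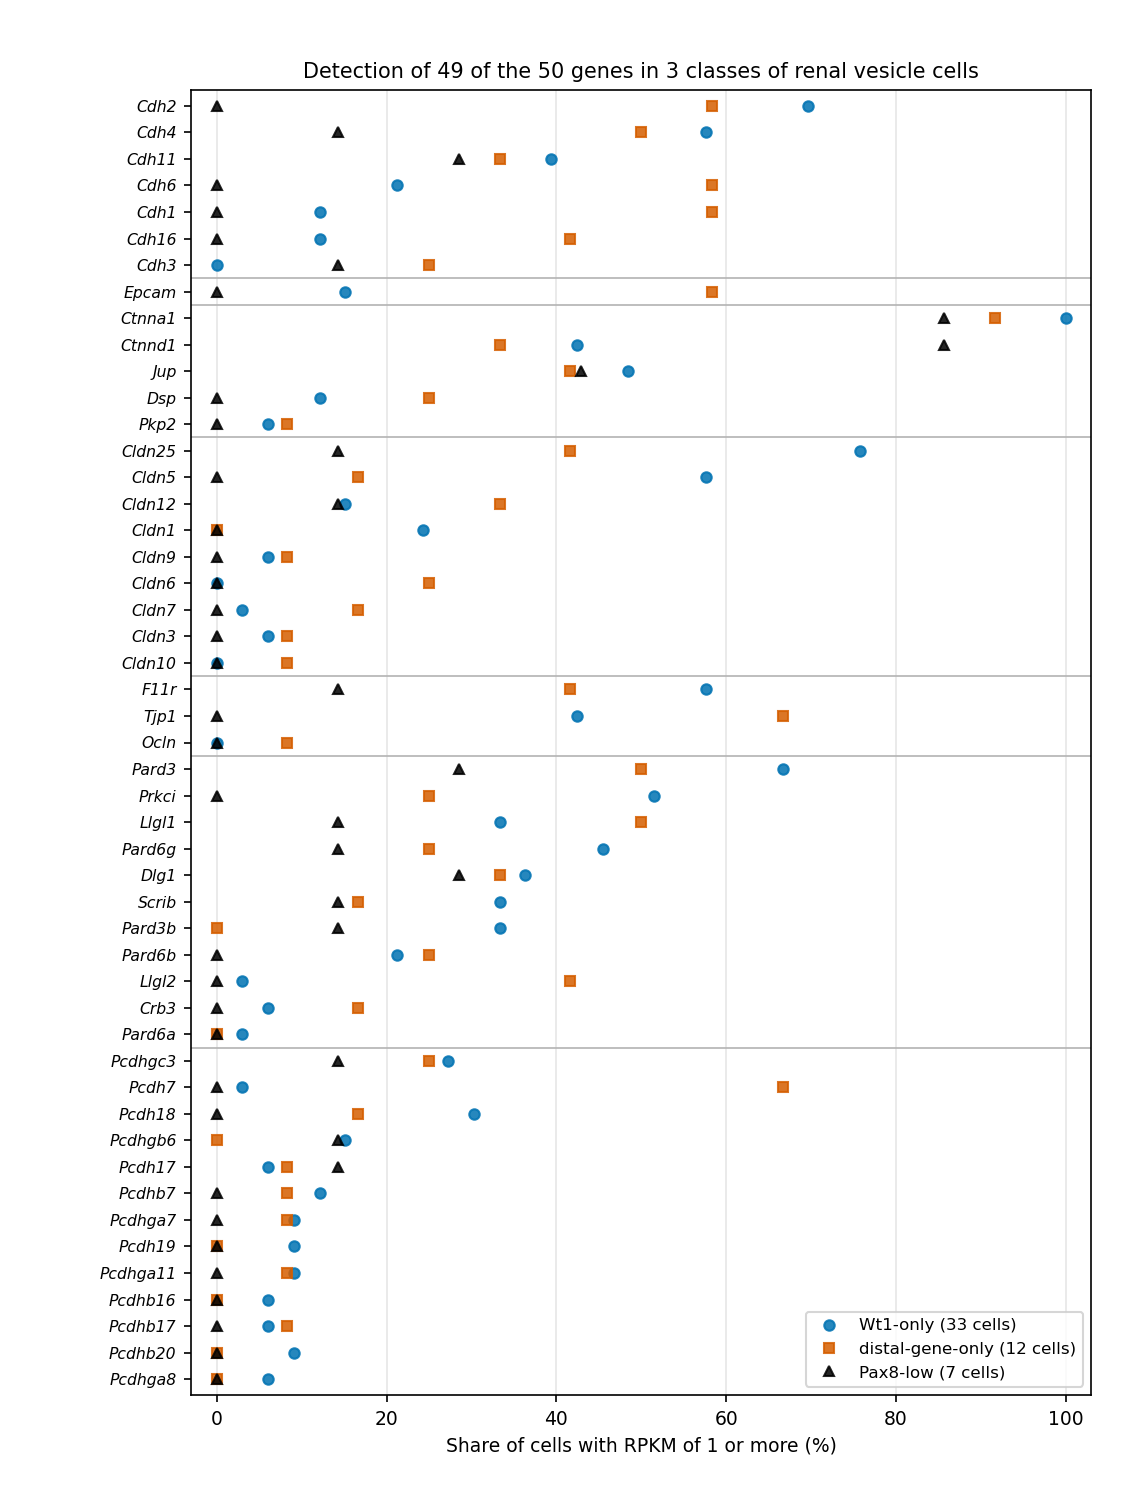
Share of cells with RPKM of 1 or more for 49 of the 50 genes (rows, grouped by family, broadest first) in 33 Wt1-only cells (circles), 12 distal-gene-only cells (squares) and 7 Pax8-low cells (triangles). Pcdh7 stands at 66.7% in distal-gene-only and 3.03% in Wt1-only cells, Cldn5 at 16.7% and 57.6%, and 31 genes are at 0 in Pax8-low cells.

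Pax8 cells were compared with Pax8-low cells to see how far the junction genes go with nephron identity. Of the 50, 31 (62%) were detected in no Pax8-low cell, against 26.5% of all genes in the table. These shares are not like for like, since members were detected in fewer cells than other genes to begin with. As difference of mean log2(RPKM + 1), with 1 or more in size as the threshold for a call, 15 of 50 members (30%) were higher in Pax8 cells, and 22.3% of all genes were. In the other direction 1 of 50 (2%) was higher in Pax8-low cells, where 11.8% of all genes were. The median difference was 0.57 over members and 0.31 over all genes. In these counts fewer cells with a gene and less RNA per cell cannot be told apart. Depth moved with this split, at medians of 1480000 and 1090000 estimated reads, and so did macrophage genes. The macrophage list, all 12 genes of which have a row, summed to a median of 10213 RPKM in Pax8-low cells (range 219 to 19285) and to at most 201 in Pax8 cells. Their part in the differences was not tested.

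Among the cadherin and catenin members, Ctnna1 and Cdh2 had the largest differences. Ctnna1 ranged from 0.657 to 483 RPKM in Pax8 cells with a median of 135, and from 0.298 to 107 with a median of 6.23 in Pax8-low cells. The ranges overlapped, and the difference of mean log2 was 3.45. Cdh2 was 0 to 240 RPKM with a median of 3.74 in Pax8 cells, and its highest value in the 7 Pax8-low cells was 0.135. The difference was 2.70, and 34 of 50 against 0 of 7 cells had it detected. Further cadherins past the threshold were Cdh4 (1.72), Cdh6 (1.47), Cdh16 (1.23) and Cdh1 (1.15), so that 5 of 7 cadherins were called. Cdh6, Cdh16 and Cdh1 were detected in no Pax8-low cell, and Epcam (1.43) was at 0 RPKM in all 7 of them. Cdh16 fell under the threshold, to 0.98, without the 2 cells that carried both sets of vesicle genes, and Cdh1 to 0.90 with the Pax8 threshold at RPKM 20.

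Called as higher in Pax8 cells were also 2 of 9 claudins, 2 of 4 other tight junction genes and 3 of 11 polarity genes. Cldn5 was detected in 22 of 50 Pax8 and 0 of 7 Pax8-low cells, with a difference of 2.39. A Pax8 threshold of RPKM 20 lowered it to 0.49, since this moves cells 50 and 54, with Cldn5 at 280 and 168 RPKM, to the low class. F11r differed by 2.36 (27 of 50 against 1 of 7 cells), Tjp1 by 1.71 (24 against 0), Prkci by 1.84 (22 against 0) and Pard3 by 1.45 (28 against 2). Cldn25 (2.13) and Pard6g (1.07) were called against all 7 Pax8-low cells, but against cells 13 and 53 alone they were lower in Pax8 cells, at -0.75 and -0.79. Cell 13 had Cldn25 at 310 RPKM. Pcdh7 (1.06) was past the threshold in 4 of 9 settings, and at 0.27 with the Pax8 threshold at RPKM 20. It fell to 0.95 without cell 50, and Pard6g to 0.94 without cell 1. Pard3 was at 0.91 against cells 13 and 53 alone.

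Ctnnd1 (p120-catenin, which holds cadherins at the membrane) went the other way. It was detected in 6 of 7 Pax8-low cells, at 0.310 to 143 RPKM with a median of 5.39, and in 20 of 50 Pax8 cells, at 0 to 121 RPKM with a median of 0.561. The difference of -1.24 rested on cell 1, without which it was -0.58. Cdh11 differed by -0.89 and was not called, and its 2 values in the stroma-gene cells 13 and 53 were 158 and 278 RPKM. In the 5 C1qb cells Cdh11 was at most 0.358 RPKM. Across Pax8-low cells, 11 members were detected somewhere in the C1qb cells and 13 somewhere in cells 13 and 53.

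The number of members detected in a cell went with the number of all genes detected (Spearman rho 0.69 over 57 cells and 0.67 over 50 Pax8 cells, as descriptions, since both counts share a library's depth). It was 12 in the median Wt1-only cell (range 7 to 21), 13 in distal-gene-only cells (6 to 23), 7, 14 and 17 in the 3 cells with neither gene set, and 4 in Pax8-low cells (3 to 9). Per 1000 detected genes the medians were 2.71, 2.87, 3.18 and 1.03. Among the 37 Pax8 cells within the range of detected genes of the Pax8-low cells (3363 to 4839), the count was 7 to 17. Its median was 12, and 0 of these cells were at 4 or fewer. Only the range was matched: its upper end is Pax8-low cell 25, and the next highest Pax8-low cell had 3977 detected genes. Depth was thus not made equal. Pax8-low cells 13 and 53, with 9 and 7 members, lay inside the 7 to 17. Within Pax8 cells the count did not track the level of Pax8 itself (rho -0.09, 50 cells).

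**Figure D2:**
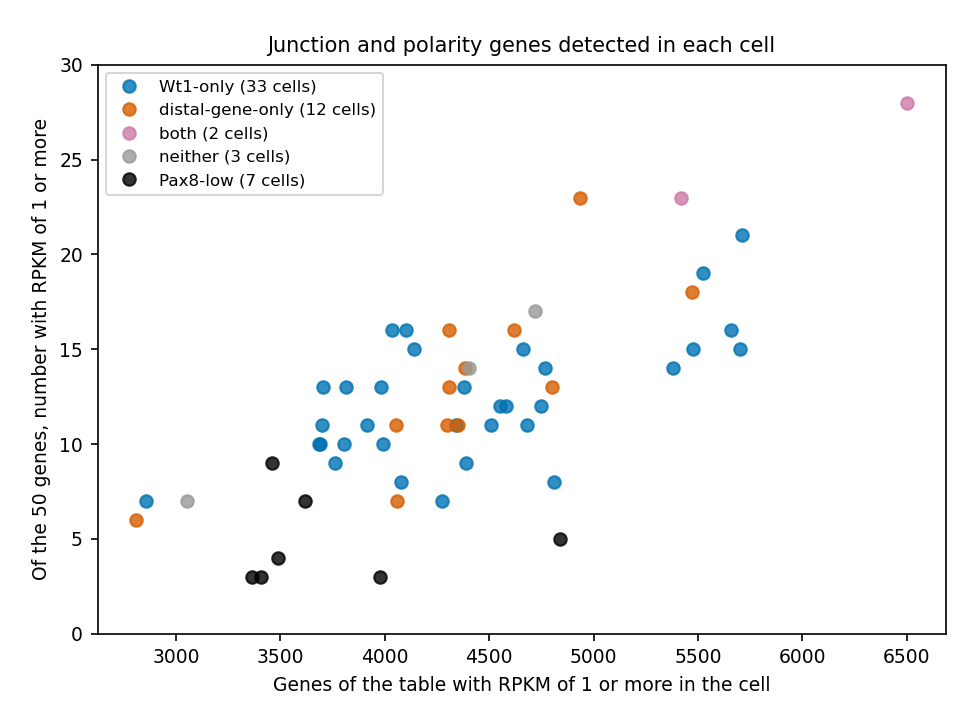
Number of the 50 genes at RPKM 1 or more in each cell (vertical) against the number of all table genes at RPKM 1 or more in it (horizontal), coloured by class, 1 point a cell. The 7 Pax8-low cells lie at 3 to 9 members, and cells 41 and 36, with both vesicle gene sets, lie highest at 28 and at 23, the latter shared with 1 distal-gene-only cell.

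Proximal-type and distal-type cells were then compared within Pax8 cells. Of the 50 members 3 (6%) were higher in Wt1-only cells by 1 or more on the log2 scale, and 7.27% of all genes were. Higher in distal-gene-only cells were 8 (16%), against 8.18% of all genes. The median difference was 0.04 over members and 0.04 over all genes, so the median member lay where the median gene did. Higher in distal-gene-only cells were Pcdh7, Epcam, Cldn6, Cdh1, Llgl2, Tjp1, Cdh6 and Llgl1, while Cldn5, Cldn25 and Ctnna1 were higher in Wt1-only cells.

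**Figure D3:**
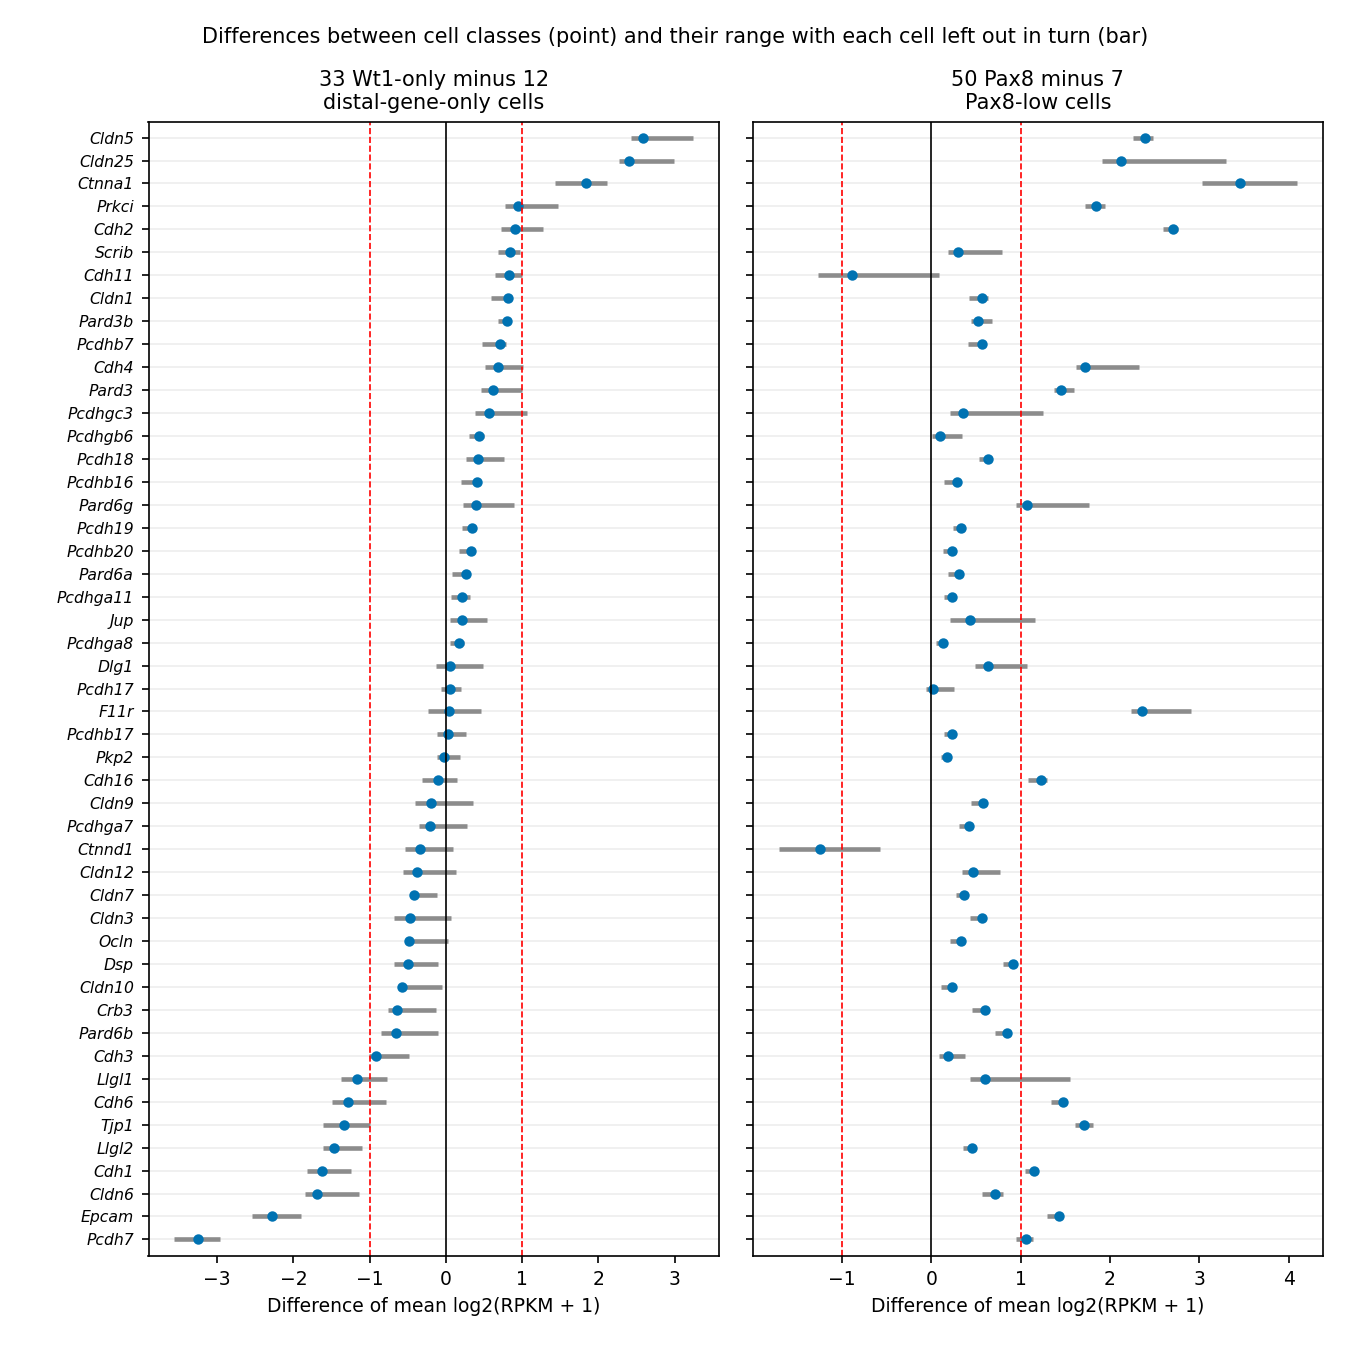
Difference of mean log2(RPKM + 1) for 49 of the 50 genes, between 33 Wt1-only and 12 distal-gene-only cells (left) and between 50 Pax8 and 7 Pax8-low cells (right); points are the differences, grey bars their range when each cell is left out in turn, and dashed lines the threshold of 1 in size. Pcdh7 at -3.25 and Cldn5 at 2.58 stand at the ends of the left panel, and Ctnnd1 at -1.24 is the only point past the lower threshold in the right panel.

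Zeb and Snail proteins are known to bind the E-box CACCTG, and promoters of members were searched for it because Zeb1 (detected in 10 of 33 Wt1-only and 0 of 12 distal-gene-only cells) and members such as Epcam were higher at opposite poles. RefSeq promoters (GRCm38.p6, the 250 bases before the start) were at hand for 28 of the 50 genes, as 40 promoters. The letters CACCTG, on either strand, were in 9 of these 40 (22.5%) and in 17.2% of the 32851 promoters listed, so members were near the general share. The following show the 3 distal-gene members with the largest differences and, for contrast, Cldn5, 5′ to 3′ on the plus strand, with each E-box in capitals (Epcam at chr17:87635729-87635978, Pcdh7 at chr5:57717831-57718080, Cldn6 at chr17:23679115-23679364, Cldn5 at chr16:18776597-18776846):
Epcam: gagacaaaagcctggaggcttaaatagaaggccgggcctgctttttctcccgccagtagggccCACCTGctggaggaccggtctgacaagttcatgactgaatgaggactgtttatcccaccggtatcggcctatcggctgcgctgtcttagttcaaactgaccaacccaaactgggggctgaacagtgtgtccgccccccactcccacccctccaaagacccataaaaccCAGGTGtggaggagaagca
Pcdh7: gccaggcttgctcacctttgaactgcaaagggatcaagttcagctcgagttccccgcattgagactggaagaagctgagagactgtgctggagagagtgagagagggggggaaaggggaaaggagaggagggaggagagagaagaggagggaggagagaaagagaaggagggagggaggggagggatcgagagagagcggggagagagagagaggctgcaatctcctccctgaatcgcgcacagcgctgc
Cldn6: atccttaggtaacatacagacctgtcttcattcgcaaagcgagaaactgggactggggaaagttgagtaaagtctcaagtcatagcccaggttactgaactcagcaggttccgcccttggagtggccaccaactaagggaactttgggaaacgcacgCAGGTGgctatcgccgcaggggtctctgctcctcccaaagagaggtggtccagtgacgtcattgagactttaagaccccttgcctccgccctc
Cldn5: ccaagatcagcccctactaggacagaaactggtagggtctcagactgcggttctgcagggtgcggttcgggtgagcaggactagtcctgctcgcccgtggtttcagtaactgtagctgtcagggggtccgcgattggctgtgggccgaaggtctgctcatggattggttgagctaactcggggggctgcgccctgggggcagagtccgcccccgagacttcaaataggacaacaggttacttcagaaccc
Epcam holds 2 matches and Cldn6 holds 1, while these letters are in neither of the other windows. Pcdh7, with the largest difference between the poles, was thus without a match. Promoters of Cldn7, Crb3, Ocln, Pard6b, F11r and Pard3 also held a match, at pole differences of -0.42, -0.64, -0.48, -0.66, 0.04 and 0.61. All of these were under the threshold. No promoter of Cdh1 was at hand. A match describes the letters and shows no binding. The part of Zeb1 in the differences between the poles was not tested.

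Pcdh7, a protocadherin of the delta group on chromosome 5 (58109260 to 58523479 in build mm9), separated the classes most. It was detected in 8 of 12 distal-gene-only cells (66.7%, interval 34.9 to 90.1%), at 14.6, 20.0, 22.9, 23.5, 31.8, 32.9, 50.9 and 91.4 RPKM, and in 1 of 33 Wt1-only cells (3.03%, interval 0.0767 to 15.8%), at 5.6 RPKM. That cell, cell 23, had Wt1 at 21.5 and Sox9 at 14.7 RPKM, close to both thresholds. The difference of mean log2 was -3.25, and between -3.56 and -2.97 with any 1 cell left out.

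Epcam, an adhesion molecule of epithelia (chromosome 17, 88035319 to 88050467 in mm9), was detected in 7 of 12 distal-gene-only cells (58.3%, interval 27.7 to 84.8%) and 5 of 33 Wt1-only cells (15.2%, interval 5.11 to 31.9%). Its values were 3.2, 17.4, 18.0, 33.1, 60.0, 93.8 and 137 RPKM in the former and 2.4, 2.4, 17.4, 63.0 and 261 in the latter. The highest value of all was in a Wt1-only cell, again cell 23. Only with this cell did the ranges overlap fully, since the next Wt1-only value was 63.0, against 137 in distal-gene-only cells. Cell 23 had 6 of 8 listed distal vesicle genes detected, against a median of 1 in Wt1-only cells. Of the 6 listed proximal vesicle genes it had 3, against a median of 4. The Epcam difference was -2.27.

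Cdh1 (chromosome 8, 109127268 to 109194146 in mm9) was detected in 7 of 12 distal-gene-only cells (58.3%) and 4 of 33 Wt1-only cells (12.1%, interval 3.40 to 28.2%). Distal-gene-only values ran from 3.7 to 80.1 RPKM where detected, and the Wt1-only values were 5.7, 12.3, 36.1 and 52.9. The difference was -1.62. Epcam, Cdh1 or Pcdh7 was present in 11 of 12 distal-gene-only and 8 of 33 Wt1-only cells, and all 3 together in 4 of 12 (33.3%) and 0 of 33 (interval 0 to 10.6%). Cdh2 and Cdh4 were present at both poles: 1 or both of them was detected in 11 of 12 distal-gene-only cells and 28 of 33 Wt1-only cells.

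The other 5 genes higher in distal-gene-only cells were Cldn6, Llgl2, Tjp1, Llgl1 and Cdh6. Cldn6, a claudin of early epithelia, was found in 3 of 12 cells at 49.6, 183 and 224 RPKM and in 0 of 33 Wt1-only cells, where the highest value was 0.6 (difference -1.68). Llgl2, the epithelial lethal giant larvae gene, was detected in 5 of 12 and 1 of 33 cells (-1.47). Tjp1 was detected in 8 of 12 and 14 of 33 (-1.33), and at -0.996 without cell 15 it was just under the threshold. Llgl1 (-1.16; 6 of 12 and 11 of 33) fell under the threshold without cell 50, at -0.77. Cdh6 (-1.28; 7 of 12 and 7 of 33) fell to -0.79 without cell 33, and was 0.07 when distal cells were taken by Pou3f3 alone.

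Cldn5, a claudin best known from endothelium and also from podocytes (chromosome 16, 18776940 to 18778355 in mm9), was the member most shifted to Wt1-only cells. It was detected in 19 of 33 of them (57.6%, interval 39.2 to 74.5%), at up to 393 RPKM with a median of 9.75 over all 33, and in 2 of 12 distal-gene-only cells (16.7%, interval 2.09 to 48.4%), at 3.4 and 280 RPKM. The difference was 2.58. Of the 3 endothelium genes of 7 listed that have a row, Flt1 was detected in 2, Tek in 1 and Egfl7 in 4 of the 22 cells with Cldn5, and in 0, 1 and 5 of the 35 cells without it. Cldn5 and Pcdh7 were detected together in 2 of 57 cells, 50 and 36. Cldn25 was present in 19 of the 22 cells with Cldn5 (86.4%) and in 63.2% of all cells. The 22 cells were all Pax8 cells, and Cldn25 was detected in 70% of Pax8 cells and 75.8% of Wt1-only cells.

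Ctnna1 was detected in 33 of 33 Wt1-only and 11 of 12 distal-gene-only cells, so its difference of 1.83 was one of level. Medians were 188 RPKM (range 5.08 to 483) and 72.7 RPKM (range 0.657 to 295). Cldn25 was detected in 25 of 33 and 5 of 12 cells (2.40). Smooth muscle and stroma genes were also higher in Wt1-only cells, with Meis1 at 1.81, Tagln at 1.55 and Acta2 at 1.30. The 7 of 9 stroma genes with a row summed to 0 to 363 RPKM in Wt1-only and 0 to 25.5 in distal-gene-only cells, and the 3 of 4 smooth muscle genes to 0 to 998 and 0 to 94.2. Their part in these differences was not tested.

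Some members had unequal detection without reaching the threshold. Cldn1, known from the parietal cells of Bowman's capsule, was detected in 8 of 33 Wt1-only cells, at 1.3 to 231 RPKM, and in 0 of 12 distal-gene-only cells (difference 0.81; intervals 11.1 to 42.3% and 0 to 26.5%, which overlap). Pard3b was detected in 11 of 33 and 0 of 12 (0.80) and Prkci in 17 of 33 and 3 of 12 (0.95). Cdh2 was detected in 23 of 33 and 7 of 12 (0.90), with medians of 3.82 and 1.50 RPKM. Cdh16 differed by -0.11 despite detection in 4 of 33 and 5 of 12 cells: it was at 28.9 to 204 RPKM in the 4 Wt1-only cells and at 1.9 to 12.3 RPKM in the 5 distal-gene-only cells. F11r differed by 0.04 and Dlg1 by 0.05. Of the Par complex, Pard3, Prkci and a Pard6 gene were detected together in 9 of 33 and 2 of 12 cells.

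**Figure D4:**
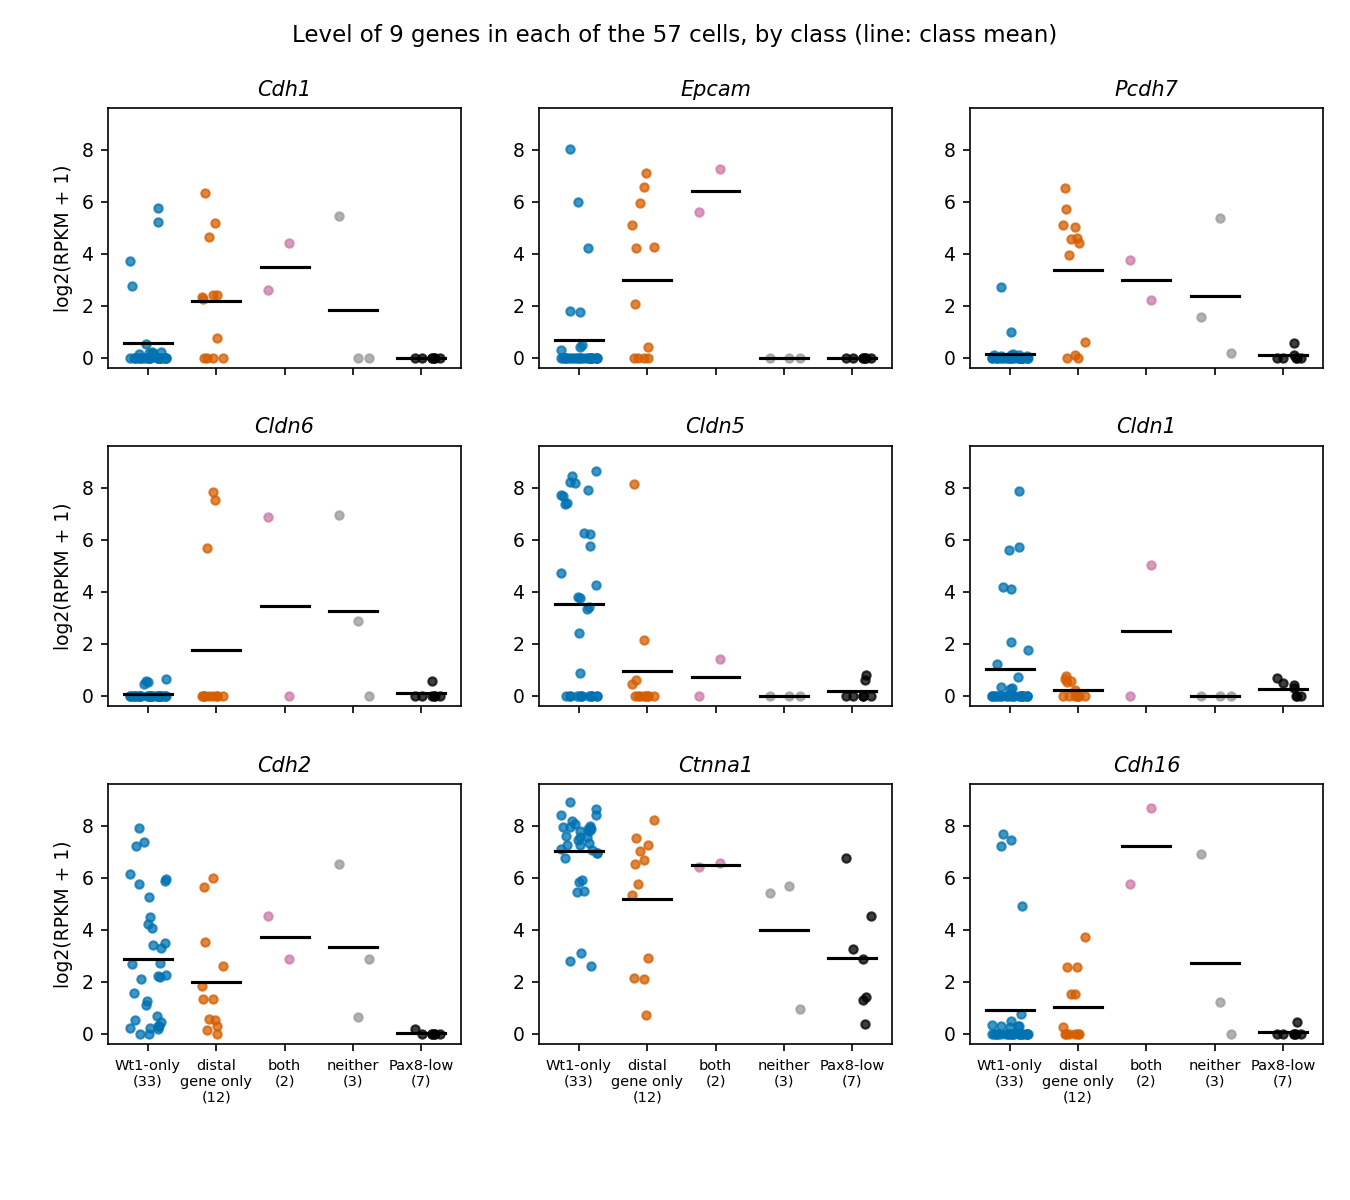
Level of 9 genes as log2(RPKM + 1) in each of the 57 cells, by class (number of cells in brackets); points are cells, spread sideways at random, and lines are class means. Pcdh7 is at RPKM 14.6 or more in 8 of 12 distal-gene-only cells, Cldn5 is detected in 19 of 33 Wt1-only cells, and Cdh2 is near 0 in all 7 Pax8-low cells.

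Cells 36 and 41, which had both Wt1 and a distal gene at RPKM 20 or more, had 23 and 28 members detected, at 5419 and 6502 detected genes, which rank eighth and first of the 57 cells. The distal-gene-only cell 40 also had 23, at 4934 detected genes, and the most per 1000 detected genes of these 3 cells (4.66, against 4.24 and 4.31). Whether either holds more than 1 cell was not tested. Both had Epcam (150 and 46.9 RPKM), Cdh1 (20.0 and 5.01), Cdh16 (413 and 53.0), Crb3 (283 and 11.6), Cldn7 (12.2 and 25.2) and Cldn9 (7.76 and 27.1). Neither had Pard3, Pard6g or Dlg1 at RPKM 1. Among the 3 cells with neither gene set, cell 3 held Cdh1 (42.5), Cdh16 (119), Cldn6 (121), Ocln (98.3) and Dsp (47.3 RPKM) without Epcam.

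In the authors' deposited table of genes that differ between proximal and distal vesicle cells, 787 genes are listed over 28 of these cells. By the marker classes above, those 28 were 17 Wt1-only, 10 distal-gene-only and 1 with neither, so the table shares cells with the comparison made here. The authors' deposited table lists 10 of the 50 members (20%), and 6.51% of all genes. The 4 listed there as higher in proximal cells (3.61% of all genes are) were Prkci with a signed fold of 8.84, Cldn5 with 7.62, Pard3b with 3.67 and Ctnna1 with 3.59. The authors' deposited table gives 6 as higher in distal cells (2.9% of all genes): Pcdh7 with -73.0, Epcam with -12.1, Dsp with -6.49, Llgl2 with -3.47, Cldn6 with -3.19 and Cldn7 with -1.73. In the authors' deposited table Pcdh7 ranked 4 among 351 distal genes and Epcam 41. For the same 10, the differences computed here on the log2 scale were 0.95, 2.58, 0.80 and 1.83 for the first 4, and -3.25, -2.27, -0.50, -1.47, -1.68 and -0.42 for the other 6, in that order. Dsp was detected in 4 of 33 and 3 of 12 cells in all, with its highest value, 102 RPKM, in the Wt1-only cell 23. The authors' deposited table gives no class for single cells, but lists cell 23 between the distal-gene-only cells 20 and 32. The authors may thus have classed it otherwise, and its part in the gap for Dsp was not tested.

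Members showed little joint variation across cells. Over the 378 pairs among the 28 members detected in 10 or more cells, the median Spearman rho across 50 Pax8 cells was 0.02. It was 0.03 over pairs among 2000 genes of the table also detected in 10 or more cells, which were not matched further for breadth. The pairs with the highest rho were Pcdh7 with Epcam (0.53), Pard6b with Cldn12 (0.50), Dsp with Cdh6 (0.48), Cdh1 with Epcam (0.45) and Cldn5 with Ctnna1 (0.42). Lowest were Cdh11 with Cdh6 (-0.44) and Pcdh7 with Ctnna1 (-0.43). Pcdh7 had the strongest relation to Wt1 (-0.70), and Ctnna1 (0.46) and Cldn5 (0.42) had the highest. Wt1 was used to set the classes, so its rho values in part restate the comparison between the poles. All rho values here are descriptions over cells that share 1 lane and differ in depth. As to overlap, 8 of the 14 cells with Epcam had Cdh1 (57.1%) and 8 had Pcdh7, where 24.6% and 22.8% of all cells did. The 14 cells were all Pax8 cells, of which 28% had Cdh1 and 26% had Pcdh7. In distal-gene-only cells these shares were 58.3% and 66.7%, and in Wt1-only cells 12.1% and 3.03%, so the overlap in part restates the classes.

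A wider list of 63 junction, polarity and epithelial transition genes, of which 41 have a row, gave the setting. For the same calls the shares of all genes were 22.3% higher and 11.8% lower in Pax8 cells, and 7.27% and 8.18% higher in Wt1-only and distal-gene-only cells. The counts that follow are near or below these shares. Against Pax8-low cells 9 of 41 were higher in Pax8 cells, among them Ctnnb1 (2.95), Jam3 (2.42), the apical linker Ezr (2.21) and the coxsackievirus receptor Cxadr (1.52). Lower in Pax8 cells were 3: Zeb2 (-3.19) and Snai2 (-1.91), repressors of epithelial genes, and the filament gene Vim (-2.17). Of the 7 Pax8-low cells, 5 were the C1qb cells with macrophage genes and 2 held stroma genes. The part of either kind in these 3 differences was not tested. Between poles 3 were higher in Wt1-only cells, namely the polarity kinase Stk11 (1.60), Vim (1.31) and the repressor Zeb1 (1.23). Higher in distal-gene-only cells were Ovol1 (-2.27), a factor of epithelial identity detected in 6 of 12 against 1 of 33 cells, Ezr (-1.30) and Cxadr (-1.04).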

How the data were processed

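RNA of 57 single cells was amplified with the SMARTer chemistry and sequenced from Nextera XT libraries, which carry no strand and no molecular tags, per the labels. RPKM per gene and cell was deposited by the authors. TopHat 1.4.1, DESeq and the build mm9 appear in the submitters' processing notes without their roles. The deposited table also counts the cells above RPKM 3 for each gene, and all 12087 genes have at least 2. A smaller deposited table gives the authors' signed fold of proximal against distal cells, treated as a score, since its formula could not be read from the labels or header.

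From the deposited RPKM, shares of cells at RPKM 1 or more, exact intervals, and differences of mean log2(RPKM + 1) were computed for all 12087 genes with pandas 2.3.3, numpy 2.4.6 and scipy 1.17.1, after a check on simulated data. All 50 gene identifiers matched RefSeq. Depth was estimated from the value of 1 read over 2698 genes of 1 transcript in GENCODE. Named were the broadest 4 and the narrowest member of each family, members past the threshold or in the authors' table, and a list of well-known members. Members, lists and class thresholds were chosen with earlier results of these data known. Alternatives covered thresholds, pseudocounts, filters, scaling and left-out cells. Those that leave out each cell or cells 36 and 41 were added after seeing the data. The values of 1 member are not reported here, and it counts in the totals only.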

Additional observations from a re-analysis of the deposited data

How the results depend on the processing

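Of the alternatives for single members, 235 kept the direction within the spread and 4 moved. Another 4 reversed: Cldn25 (-0.75) and Pard6g (-0.79) without the C1qb cells, Cdh6 (0.071) with distal cells by Pou3f3 only, and Ctnnd1 (1.42) in cells of middle gene number, which leaves 1 Pax8-low cell against 28. A kept direction is not a kept call, since values under the threshold of 1 are among the 235. Against Pax8-low cells Cldn5 fell from 2.39 to 0.49 at a Pax8 threshold of RPKM 20, and Pcdh7 passed in 4 of 9 settings. F11r, Cdh2 and Ctnna1 passed in all 9. Between the poles Epcam, Cdh1, Cldn6, Llgl2, Tjp1, Llgl1 and Cdh6 fell under the threshold at pseudocount 10. The median breadth of 20.2% was 36.8% at any RPKM above 0 and 10.5% at RPKM 5. Members higher in Pax8 cells numbered 25 at pseudocount 0.1 and 4 at pseudocount 10, and 13 to 16 with each cell left out. Members higher in Pax8-low cells numbered 0 at pseudocount 10, 2 at a Pax8 threshold of 1, 3 without the C1qb cells and 1 to 2 with each cell left out, and a share larger by 20 points there was held by 2 members, not 1, at any RPKM above 0.

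Members higher in Wt1-only cells numbered 8 at pseudocount 0.1, 7 in cells of middle gene number, 5 at a class threshold of 5, 6 at 50, and 5 with either Pou3f3 or Sox9 alone, against 3 in the report and 3 to 4 with each cell left out. Members higher in distal-gene-only cells numbered 1 at pseudocount 10, 14 at a class threshold of 50 and 7 to 9 with each cell left out, against 8. A share larger by 20 points in them was held by 9 members, and by 5 at RPKM 5. Pcdh7, Cldn5, Cldn25 and Ctnna1 stayed past the threshold between the poles in all 9 settings. The cause of these shifts was not tested, and depth of 476000 to 2310000 reads a cell limits all shares. No paired analysis was possible because the series has 1 group.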
